A study of Mus musculus with 6 samples.

Results

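Bone morphogenetic proteins (BMPs) and activins are secreted ligands of the TGF-beta superfamily, and 10 genes of their signaling were followed here through the newborn mouse inner ear. They are the ligand genes Bmp2, Bmp4, Bmp7 and Inhba, the genes of the extracellular inhibitors and modulators Fst, Chrd, Nog and Bmper, and the target genes Id1 and Id3. They were chosen by name, with earlier results of these data known. All 10 symbols matched 1 Ensembl gene each among the 39179 genes of the count files, and all 10 passed the filter on low counts. None passed it through a single tissue, since each had at least 1 CPM (counts per 1000000 counts on genes) in all 6 libraries. Counts of the 10 genes ran from 38 to 6291 in a library.

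The sensory epithelium of the cochlea, the hearing organ, and of the vestibule, the balance organ, was dissected from wild-type C57Bl/6J mice at P0, males and females together. RNA was pooled from 20 cochleae or 20 vestibules, and 3 libraries were made of each tissue. The sample labels give at least 20 organs for each library, whereas the methods give 20 inner ears in all, from which both tissues were dissected. The main fit below did not pair the tissues. Whether the 3 libraries of a tissue came from separate pools or are portions of 1 pool cannot be told apart, so the p-values below measure the spread between these libraries, which may be technical.

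BMP and activin ligands bind pairs of type I and type II receptor kinases on the cell surface. The receptors phosphorylate Smad proteins, Smad1, Smad5 and Smad9 for BMPs and Smad2 and Smad3 for activins, which enter the nucleus with Smad4 and switch genes on. Secreted inhibitors hold the ligands away from their receptors. In the developing ear this signaling is known for patterning the sensory patches and the semicircular canals and for timing hair cell differentiation along the cochlear duct.

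Counts on genes were between 24464483 and 33664793 per library, so that 1 CPM stood for 24.5 to 33.7 counts. The tissue labels were checked against markers, which were chosen with earlier results of these data known, so the check is not independent. Of 5 cochlear epithelium markers, 4 were higher in the cochlea and Otoa was not called, and all 5 vestibular epithelium markers were higher in the vestibule. The 10 hair cell markers summed to 593 to 829 CPM in the cochlea and 1044 to 1365 CPM in the vestibule, and the 10 supporting cell markers to 1539 to 1746 and 876 to 971 CPM. Other cell types were also present. Mesenchyme markers summed to 5278 to 5989 CPM in the cochlea and 8125 to 9361 CPM in the vestibule, endothelium to 192 to 270 and 437 to 622, macrophages to 79.1 to 94.1 and 309 to 335, melanocytes to 31.0 to 60.0 and 272 to 336, Schwann cells to 672 to 783 and 1095 to 1342, and dark cells and stria to 559 to 722 and 935 to 1100. The ranges overlapped for cartilage and bone (11899 to 20534 and 14746 to 19338 CPM), neurons (169 to 542 and 104 to 324), red blood cells (120 to 331 and 203 to 276) and skeletal muscle. Single markers did not always go with the sums. Of 10 mesenchyme markers, 4 were higher in the vestibule, 2 in the cochlea and 4 were not called. Of 10 cartilage and bone markers tested, 5 were higher in the vestibule, 1 in the cochlea and 4 were not called. Of 7 neuron markers tested, 3 were higher in the cochlea, 0 in the vestibule and 4 were not called. Skeletal muscle markers stood at 343 CPM in cochlea replicate 3 and between 6.17 and 32.9 CPM in the other 5 libraries, with Tnnc2 at 0 counts throughout. Immediate early genes, which respond to dissection stress, summed to 129 to 142 CPM in the cochlea and 145 to 231 CPM in the vestibule. In such bulk samples fewer cells of a type and less RNA per cell cannot be told apart, and the part of other cell types in the differences below was not tested.

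Of the 10 genes, 8 differed between the tissues at a false discovery rate (FDR) of 0.05. The calls are those of the quasi-likelihood test of edgeR, with p-values adjusted by Benjamini and Hochberg's method over all 14723 genes tested. Bmp4, Inhba, Fst, Nog, Id1 and Id3 were up-regulated in the cochlea, and Bmp2 and Chrd in the vestibule. Bmp7 and Bmper did not pass the threshold. Of all genes tested 27.4% passed it, 11.6% higher in the cochlea and 15.8% higher in the vestibule. The libraries of the tissues did not overlap in CPM for the same 8 genes, as for 41.8% of all genes tested. The median absolute log2 fold change was 0.97 over the 10 genes and 0.32 over all genes tested. Without any 1 library in turn, between 6 and 9 of the 10 genes were called. A positive log2 fold change below means a higher level in the vestibule, after TMM scaling, and CPM values are scaled to library size only.

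**Figure D1:**
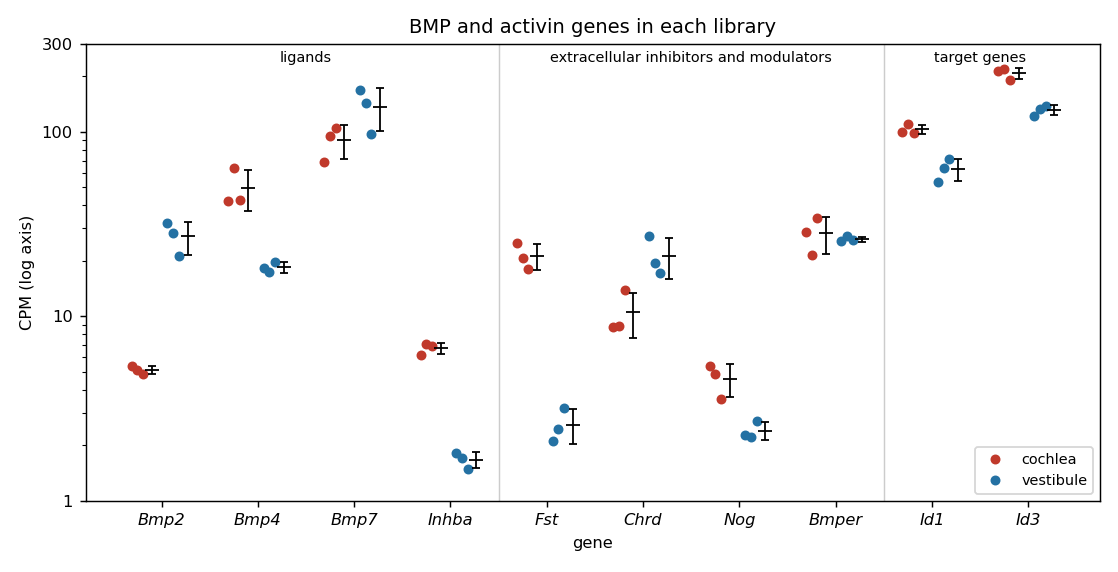
CPM of the 10 genes (log axis) in the 3 cochlear (red) and 3 vestibular (blue) libraries, with the mean and SD of each tissue in black (n = 3). The red and blue points overlap only for Bmp7 and Bmper, and Fst shows the widest gap, from a mean of 21.3 CPM in the cochlea to 2.58 CPM in the vestibule.

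Among the ligands, Bmp2 and Bmp4 differed in opposite directions. They are close relatives and bind the same receptors. Bmp2 (ENSMUSG00000027358, chromosome 2 from 133552159 to 133562885 of GRCm38 in GENCODE vM21) had 5.35, 5.10 and 4.86 CPM in the cochlea and 32.0, 28.2 and 21.2 CPM in the vestibule. Every vestibular library was far above every cochlear one. Its log2 fold change was 2.28 (standard error 0.17, edgeR adjusted p = 3.4e-05), which is 4.86-fold. Cochlear values rest on 131, 147 and 142 counts, vestibular values on 1078, 724 and 539.

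Bmp4 (ENSMUSG00000021835, chromosome 14 from 46383520 to 46390669), known from the cochlear duct beside the organ of Corti and from the cristae of the vestibule, had 42.2, 63.7 and 42.7 CPM in the cochlea and 18.3, 17.3 and 19.7 CPM in the vestibule. All cochlear libraries were higher, and replicate 2 was the highest of them. Its log2 fold change was -1.55 (standard error 0.21, edgeR adjusted p = 0.00069), or 2.93-fold higher in the cochlea. A predicted gene on the opposite strand, Gm15217, shares 89 bases with the exons of Bmp4 and had 3 to 16 counts in a library, and the strand setting of the counting is not stated.

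Bmp7 (ENSMUSG00000008999, chromosome 2 from 172868012 to 172940321) encodes a ligand known from kidney, eye and inner ear. It had 68.9, 95.6 and 105 CPM in the cochlea and 169.9, 144 and 97.8 CPM in the vestibule. Vestibule replicate 3 lay between cochlea replicates 2 and 3, so the tissues overlapped. Bmp7 had a log2 fold change of 0.48, with a 95% interval of -0.013 to 0.96, which did not pass the threshold (edgeR adjusted p = 0.14). Without vestibule replicate 3 it was 0.66 and passed (edgeR adjusted p = 0.048), and without cochlea replicate 1 it was 0.30 (edgeR adjusted p = 0.36). The sums of several marker lists followed the order of the Bmp7 values within each tissue. Cartilage and bone markers summed to 11899, 16284 and 20534 CPM in the cochlea and 19338, 15735 and 14746 CPM in the vestibule. Hair cell markers summed to 593, 726 and 829 CPM in the cochlea and 1365, 1112 and 1044 CPM in the vestibule. Cochlear epithelium markers summed to 9060, 11414 and 11837 CPM in the cochlea and 1329, 1305 and 1244 CPM in the vestibule. The part of these cell types was not tested.

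Inhba (ENSMUSG00000041324, chromosome 13 from 16011851 to 16031621) encodes the subunit of which activin A is a dimer. It was measured at 6.17, 7.12 and 6.88 CPM in the cochlea and at 1.81, 1.71 and 1.49 CPM in the vestibule. The cochlear libraries lay close together, all above the vestibular ones. Its log2 fold change was -2.13 (standard error 0.21, edgeR adjusted p = 0.00012), a 4.37-fold difference. The vestibular values rest on 61, 44 and 38 counts.

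Fst (ENSMUSG00000021765, chromosome 13 from 114452290 to 114458951) encodes follistatin, which binds activin almost irreversibly and some BMPs more weakly. Fst had the largest change of the 10 genes. The cochlear libraries had 25.02, 20.7 and 18.03 CPM and the vestibular ones 2.11, 2.45 and 3.18 CPM. All cochlear values were thus far above the vestibular ones. Its log2 fold change was -3.16 (standard error 0.24, edgeR adjusted p = 3.3e-05), or 8.93-fold higher in the cochlea, and it was the 311th largest in size among the 14723 genes tested. The antisense gene Gm47040 shares 115 bases with the exons of Fst and is not among the genes counted by the authors. With the strand setting not stated, reads of the 2 genes cannot be told apart in the shared bases. The activin gene and the gene of its main inhibitor were thus both higher in the cochlea.

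The BMP inhibitors Chrd and Nog differed in opposite directions. Chordin and noggin each bind BMP2 and BMP4 outside the cell. Chrd (ENSMUSG00000006958, chromosome 16 from 20733127 to 20742384) had 8.79, 8.89 and 13.8 CPM in the cochlea and 27.4, 19.4 and 17.2 CPM in the vestibule. The tissues did not overlap, with cochlea replicate 3 nearest to the vestibule. Chrd had a log2 fold change of 0.90 (standard error 0.23, edgeR adjusted p = 0.018). Chrd missed the threshold without cochlea replicate 1 (log2 fold change 0.77, edgeR adjusted p = 0.067), without cochlea replicate 2 (0.81, edgeR adjusted p = 0.079) and without vestibule replicate 1 (0.73, edgeR adjusted p = 0.063). Its exons share 239 bases with Thpo on the opposite strand, which had 3 to 12 counts in the cochlea and 11 to 52 in the vestibule.

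Nog (ENSMUSG00000048616, chromosome 11 from 89300638 to 89302332) is a gene of 1 exon. It had 5.35, 4.86 and 3.56 CPM in the cochlea and 2.29, 2.22 and 2.71 CPM in the vestibule, all cochlear libraries being higher. Nog had a log2 fold change of -1.05 (standard error 0.25, edgeR adjusted p = 0.013). Nog missed the threshold without cochlea replicate 2 (log2 fold change -0.98, edgeR adjusted p = 0.053), without vestibule replicate 1 (-0.97, edgeR adjusted p = 0.056) and without vestibule replicate 2 (-0.97, edgeR adjusted p = 0.074). It is a low gene, with 104 to 140 counts in the cochlea and 57 to 77 in the vestibule.

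Bmper (ENSMUSG00000031963, chromosome 9 from 23223076 to 23485200), which encodes a BMP-binding protein that can block or promote the signal, had 28.7, 21.6 and 34.3 CPM in the cochlea and 25.6, 27.2 and 25.8 CPM in the vestibule. The vestibular values all lay within the cochlear range. The log2 fold change of -0.22, with a 95% interval of -0.60 to 0.16, did not pass the threshold (edgeR adjusted p = 0.37).

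Id1 and Id3 encode helix-loop-helix proteins that lack a DNA-binding region and hold back basic helix-loop-helix factors such as Atoh1. They are direct Smad targets in many cell types and also respond to other signals. Id1 (ENSMUSG00000042745, chromosome 2 from 152736251 to 152737410) had 100.3, 110.1 and 99.0 CPM in the cochlea and 53.9, 63.7 and 71.0 CPM in the vestibule. Id3 (ENSMUSG00000007872, chromosome 4 from 136143497 to 136145755) had 215, 218 and 190.3 CPM in the cochlea and 122, 133 and 138 CPM in the vestibule. For each gene all cochlear libraries were higher, and the spread within a tissue was small beside the gap. The log2 fold change was -0.83 for Id1 (standard error 0.16, edgeR adjusted p = 0.0050) and -0.78 for Id3 (standard error 0.14, edgeR adjusted p = 0.0031), or 1.78-fold and 1.72-fold higher in the cochlea. Both genes kept their call without each library in turn. Of the 10 supporting cell markers, 7 were higher in the cochlea and S100a1 in the vestibule, and their sum was 1539 to 1746 CPM in cochlear and 876 to 971 CPM in vestibular libraries. Endothelial cells are known to be rich in Id1 and Id3, and of the 8 endothelium markers 6 were higher in the vestibule and Emcn in the cochlea. The part of either cell type was not tested.

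**Figure D2:**
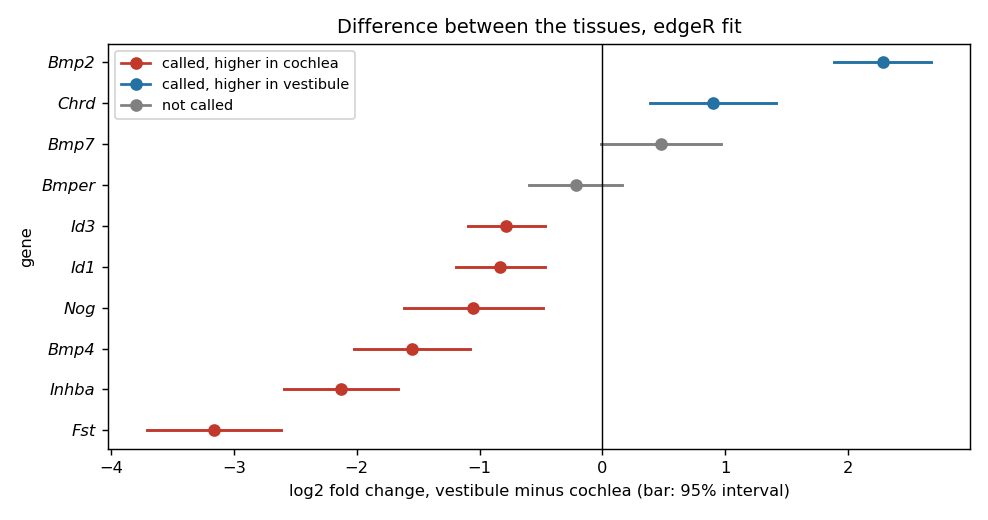
Log2 fold change (vestibule minus cochlea) of each gene from the edgeR fit, with its 95% interval. Intervals to the left of 0 (red) are genes higher in the cochlea, from Id3 at -0.78 to Fst at -3.16, those to the right (blue) are Chrd and Bmp2, and the intervals of Bmp7 and Bmper (grey) include 0.

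Promoter sequence was at hand in RefSeq (GRCm38.p6) for 5 of the 10 genes, Bmp4, Inhba, Chrd, Bmper and Id3. The 250 bases before the start were searched on both strands for GTCT, the core sequence that Smad3 and Smad4 bind, and for GGCGCC, a GC-rich sequence bound by Smad1 and Smad5. The motifs do not overlap each other here. GGCGCC was found in Chrd only, in 1 copy, as in 9.59% of the 32851 promoters of the table. GTCT was found in all 5, with 1 copy in Bmp4, Inhba and Chrd and 2 in Bmper and Id3, and 82.9% of all promoters held it. The RefSeq start of Id3 lies inside the gene as GENCODE draws it. The GC content was 43.2% in Inhba, 62.8% in Id3, 63.2% in Bmp4, 71.6% in Bmper and 78.0% in Chrd, beside a median of 52.4% over all promoters. The promoters of 2 genes higher in the cochlea, Bmp4 and Inhba, and of Chrd, higher in the vestibule, are shown to let the opposite members be compared, and for the target gene Id3 the 30 bases around each GTCT are shown. Capitals mark GTCT, its reverse complement AGAC, and GGCGCC, and a match is only a description of these letters.
Bmp4, chr14:46390670-46390919, minus strand: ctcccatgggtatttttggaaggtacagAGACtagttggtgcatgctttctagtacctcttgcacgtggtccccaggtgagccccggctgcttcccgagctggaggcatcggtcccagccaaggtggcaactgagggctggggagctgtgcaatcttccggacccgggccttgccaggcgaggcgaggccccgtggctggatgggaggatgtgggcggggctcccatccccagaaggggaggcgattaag
Inhba, chr13:16011601-16011850, plus strand: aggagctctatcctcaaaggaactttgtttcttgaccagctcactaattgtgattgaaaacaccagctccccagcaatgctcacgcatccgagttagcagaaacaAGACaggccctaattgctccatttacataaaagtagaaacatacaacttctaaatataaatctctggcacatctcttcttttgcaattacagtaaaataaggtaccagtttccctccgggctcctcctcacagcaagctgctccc
Chrd, chr16:20732877-20733126, plus strand: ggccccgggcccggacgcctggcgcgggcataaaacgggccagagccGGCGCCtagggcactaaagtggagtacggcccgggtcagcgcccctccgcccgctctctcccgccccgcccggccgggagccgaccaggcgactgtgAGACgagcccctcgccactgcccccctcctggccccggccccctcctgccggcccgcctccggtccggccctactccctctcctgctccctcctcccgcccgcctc
Id3, chr4:136143643-136143672, plus strand: tgtcctcggcgtcAGACcagcctaaggaag
Id3, chr4:136143741-136143770, plus strand: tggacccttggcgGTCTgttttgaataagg

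Levels of different genes were compared per gene length, as RPKM, which divides CPM by the gene length in kilobases, from the deposited log2 values. In the cochlea the order from the top was Id3 (116 ± 8.53 RPKM, SD, n = 3), Id1 (89.1 ± 5.24), Bmp7 (22.4 ± 4.71), Bmp4 (22.3 ± 5.53), Fst (9.11 ± 1.51), Bmper (7.44 ± 1.69), Inhba (3.41 ± 0.249), Nog (2.40 ± 0.483), Chrd (1.80 ± 0.494) and Bmp2 (1.44 ± 0.0696). Neighbors whose libraries overlapped were Bmp7 with Bmp4, Fst with Bmper, Nog with Chrd, and Chrd with Bmp2. In the vestibule the order was Id3 (73.4 ± 4.58 RPKM), Id1 (54.3 ± 7.41), Bmp7 (34.2 ± 9.11), Bmp4 (8.31 ± 0.527), Bmp2 (7.65 ± 1.55), Bmper (6.93 ± 0.222), Chrd (3.66 ± 0.927), Nog (1.26 ± 0.138), Fst (1.11 ± 0.234) and Inhba (0.851 ± 0.0832). There the libraries overlapped between Bmp4 and Bmp2, Bmp2 and Bmper, Nog and Fst, and Fst and Inhba. Id3, Id1 and Bmp7 kept the first 3 places in each tissue, Bmp2 moved from place 10 to place 5, and Fst from place 5 to place 9.

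The order depends on the gene length used. The deposited RPKM of Inhba implies a length of 1974 bases, while its exons in GENCODE vM21 cover 6390, and for Fst the lengths are 2333 and 4589 bases. On the longer lengths the cochlear level was 1.05 RPKM for Inhba, now in place 10, and 4.63 RPKM for Fst, now in place 6. Comparisons of 1 gene between the tissues are not touched by the length.

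**Figure D3:**
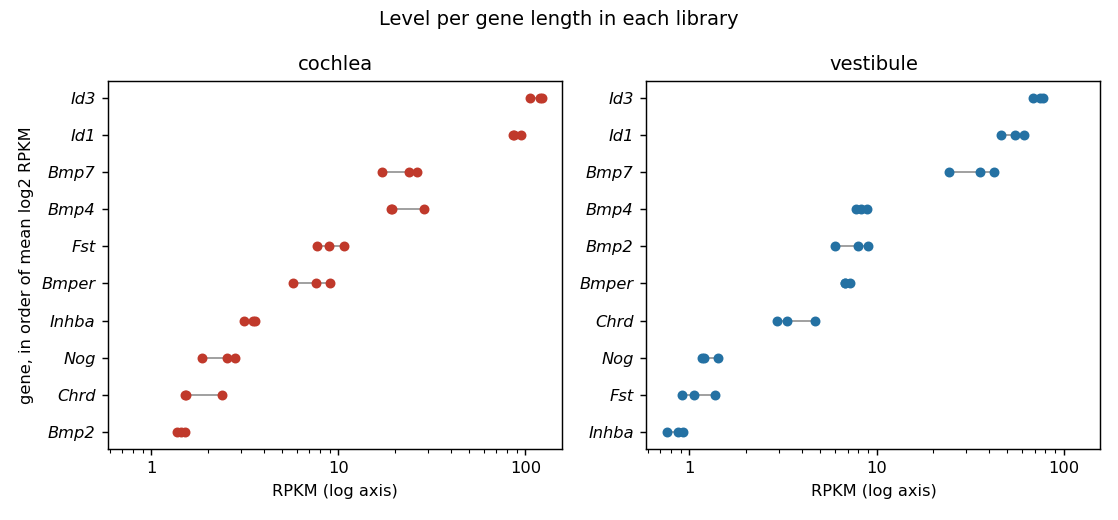
RPKM of the 10 genes in each library of the cochlea (left, red) and the vestibule (right, blue) on a log axis, in order of the mean log2 RPKM in that tissue. Grey lines span the 3 libraries, and Bmp2 is at the bottom in the cochlea but in the middle in the vestibule.

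Ratios of a pair of genes within a library do not depend on the scaling between libraries, and 9 such ratios were computed from the RPKM. They do depend on the deposited gene lengths, which set the size of a ratio but not its fold difference between the tissues. Bmp4 to Bmp2 was 12.6, 19.9 and 14.0 in cochlear libraries and 0.915, 0.983 and 1.49 in vestibular ones, a 13.8-fold difference. The cochlea thus held far more Bmp4 than Bmp2 mRNA per length, and the vestibule about as much of each. Bmp7 to Bmp4 was 0.903, 0.830 and 1.37 in cochlear libraries and 5.13, 4.59 and 2.75 in vestibular ones, and Bmp7 to Bmp2 fell from a mean of 15.7 ± 3.96 (SD, n = 3) to 4.43 ± 0.311.

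Inhibitors were also set against ligands and each other in this way. Chrd to Bmp4 rose from 0.0853 ± 0.0355 (SD, n = 3) in the cochlea to 0.443 ± 0.120 in the vestibule, and Chrd to Nog from 0.806 ± 0.409 to 2.96 ± 0.930. Nog to Bmp4 was 0.147, 0.0884 and 0.0966 in cochlear libraries and 0.145, 0.149 and 0.160 in vestibular ones, which overlap. Fst to Inhba was 3.43, 2.47 and 2.22 in cochlear libraries and 0.985, 1.21 and 1.80 in vestibular ones, without overlap. On the exon lengths of GENCODE vM21 the mean of this ratio was 4.45 in place of 2.70 for cochlear libraries, and 2.19 in place of 1.33 for vestibular ones.

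Id3 to Id1 was nearly the same everywhere, at 1.39, 1.28 and 1.25 in cochlear libraries and 1.47, 1.35 and 1.26 in vestibular ones. Id1 to Bmp4 averaged 4.10 ± 0.687 (SD, n = 3) in cochlear libraries and 6.53 ± 0.782 in vestibular ones. For the 7 ratios without overlap the two-sided exact permutation test gave p = 0.1, the smallest it can give with 3 libraries against 3 (p = 0.129 adjusted over the 9 ratios). It gave p = 0.2 for Nog to Bmp4 and p = 0.6 for Id3 to Id1 in the same exact permutation test (0.225 and 0.6 adjusted).

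**Figure D4:**
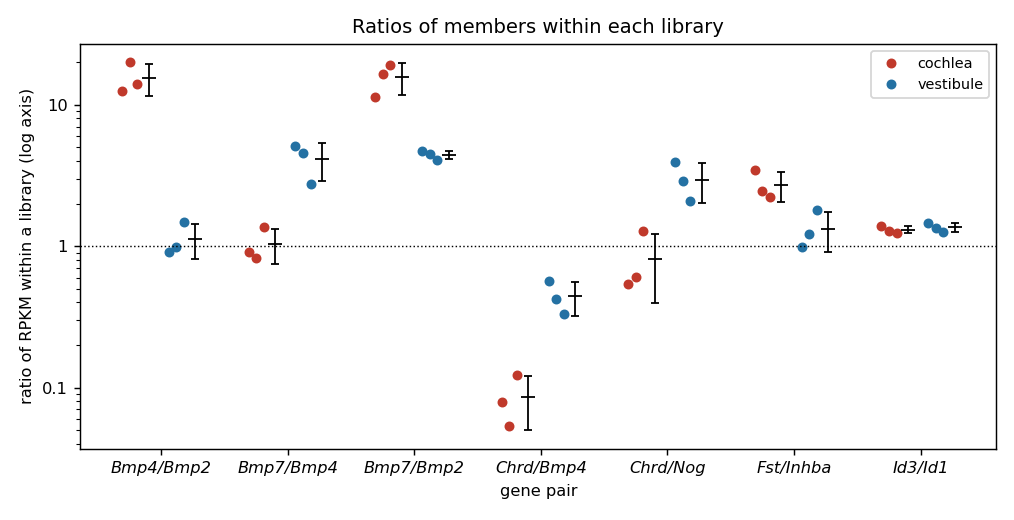
Ratios of RPKM between 2 genes within each cochlear (red) and vestibular (blue) library on a log axis, with the mean and SD in black (n = 3); the dotted line is a ratio of 1. Bmp4 to Bmp2 falls from 12.6 to 19.9 in the cochlea to 0.915 to 1.49 in the vestibule, while Id3 to Id1 stays between 1.25 and 1.47.

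Beyond the 10 genes, 87 other genes of the pathway were listed by role, of which 86 matched and 64 passed the filter. These lists too were chosen with earlier results of these data known. Of these 64, 20 were higher in the cochlea and 21 in the vestibule (64.1% called, beside 27.4% of all genes tested). Of the 64, 8 had under 1 CPM in some library. Bmp15, Msx2, Dlx5 and Dlx6 were under it in every cochlear library and passed the filter through the vestibule alone, so that they had to differ. Grem1 reached it in 1 and Msx1 in 2 cochlear libraries, and Inhbb in 1 and Tll2 in 2 vestibular ones, so that these too passed only with the tissue where they are high. Among the 56 genes with at least 1 CPM in all 6 libraries, 18 were higher in the cochlea and 15 in the vestibule (58.9% called), beside 24.2% of the 13386 genes that reached this level in all 6 libraries. Without vestibule replicate 2, the fewest pathway genes were called, 27, and the call count over all genes fell to 2267.

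Of the other ligand genes, 11 of 23 were tested, 3 were higher in the cochlea and 4 in the vestibule, and the median log2 fold change of the 11 was 0.22. Without Bmp15 and Inhbb, which passed the filter with 1 tissue, 2 of the 9 were higher in the cochlea and 3 in the vestibule (55.6% called, beside 24.2%). Inhbb, the other activin subunit gene, went from 2.24 ± 0.386 CPM (SD, n = 3) in cochlear libraries to 0.845 ± 0.257 in vestibular ones, a log2 fold change of -1.52. Gdf6, a BMP-like factor of joints and skull, had -1.39. Mstn, myostatin, known from muscle, had 1.84, 1.46 and 1.20 CPM in the cochlea and 27.0, 26.0 and 37.2 CPM in the vestibule, a log2 fold change of 4.22 (standard error 0.26, edgeR adjusted p = 1.1e-05). The skeletal muscle markers summed to 6.17, 10.7 and 343 CPM in cochlear and 12.2, 32.9 and 11.4 CPM in vestibular libraries, and their part was not tested. Bmp15, known from the oocyte, had at most 0.411 CPM in the cochlea, on 3 to 12 counts, and 1.51 to 2.04 CPM in the vestibule. Its log2 fold change was 2.75, and 3.39 without cochlea replicate 3.

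Receptors and co-receptors were called for 10 of the 12 tested, 6 higher in the cochlea and 4 in the vestibule (83.3% called, beside 24.2%). Their median log2 fold change was -0.19. Rgma, a BMP co-receptor, fell from 324 ± 45.0 CPM (SD, n = 3) in the cochlea to 112 ± 10.8 in the vestibule (log2 fold change -1.66, edgeR adjusted p = 8.7e-05). Acvr2b, a type II receptor of activin, had a log2 fold change of -1.04, which missed the threshold without cochlea replicate 2 (edgeR adjusted p = 0.054) and without vestibule replicate 2 (edgeR adjusted p = 0.087). Bmpr1b, a type I BMP receptor, had 9.40, 13.1 and 9.89 CPM in the cochlea and 38.1, 38.8 and 32.0 CPM in the vestibule (log2 fold change 1.62, edgeR adjusted p = 0.00025). Tgfbr3, betaglycan, which also presents inhibin, had 1.10.

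Of the 13 Smads and Smad regulators, 6 were higher in the cochlea, 0 in the vestibule and 7 were not called (46.2% called, beside 24.2%, and 11.1% higher in the cochlea, among all genes at 1 CPM in all 6 libraries). Their median log2 fold change was -0.40, beside 0.0048 over all genes tested. Smad9, a BMP Smad, went from 13.3 ± 5.08 CPM (SD, n = 3) in the cochlea to 4.29 ± 0.807 in the vestibule (log2 fold change -1.77, edgeR adjusted p = 0.0029). Smad6, which inhibits BMP Smads and is itself a target of the pathway, had 36.1, 43.7 and 39.2 CPM in the cochlea and 19.0, 18.8 and 18.8 CPM in the vestibule (log2 fold change -1.19, edgeR adjusted p = 0.00037). Smad7, the other inhibitory Smad, had -0.90 and was named after its values were seen.

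Among the other extracellular inhibitors and modulators, 16 of 22 were tested, 3 were higher in the cochlea, 4 in the vestibule and 9 were not called, the median being 0.11. Without Grem1 and Tll2, which passed the filter with 1 tissue, 2 of the 14 were higher in the cochlea and 3 in the vestibule (35.7% called, beside 24.2%). Grem1, which encodes the BMP inhibitor gremlin, differed widely between the tissues. Its CPM was 0.368, 0.278 and 1.27 in cochlear libraries and 119, 86.0 and 55.9 in vestibular ones, and its log2 fold change 6.93 (standard error 0.49, edgeR adjusted p = 2.3e-05). The cochlear values rest on 9, 8 and 37 counts, and without cochlea replicate 3 the log2 fold change was 7.92. Fstl1, a relative of follistatin, went from 4090 ± 105 CPM (SD, n = 3) in cochlear libraries to 1576 ± 46.3 in vestibular ones (log2 fold change -1.50). Tll1, a protease that can cut chordin, and its relative Tll2 differed in opposite directions, with log2 fold changes of 2.78 and -1.93.

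Of the 12 other genes listed as targets, 2 were higher in the cochlea and 9 in the vestibule, and the median log2 fold change was 1.22. Without Msx1, Msx2, Dlx5 and Dlx6, which passed the filter with the vestibule, 2 of the 8 were higher in the cochlea and 5 in the vestibule (87.5% called, beside 24.2%, and 13.1% higher in the vestibule, among all genes at this level). The median of the 8 was 0.72. Id2 went with Id1 and Id3, with 200.2, 257 and 186 CPM in the cochlea and 67.7, 81.3 and 93.2 CPM in the vestibule (log2 fold change -1.53, edgeR adjusted p = 0.00068). Id4, named after its values were seen, went the other way, at 39.9 ± 4.18 CPM (SD, n = 3) and 69.2 ± 5.71, a log2 fold change of 0.67. Hey1, a Notch and BMP target, had -0.89. Dlx5 and Dlx6, homeobox genes known for the semicircular canals, had 0.445 to 0.572 and 0 to 0.240 CPM in the cochlea and 18.3 to 20.8 and 11.0 to 13.2 CPM in the vestibule. Dlx6 rests on 1, 0 and 7 cochlear counts, and its log2 fold change of 6.82 was 8.92 without cochlea replicate 3.

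**Figure D5:**
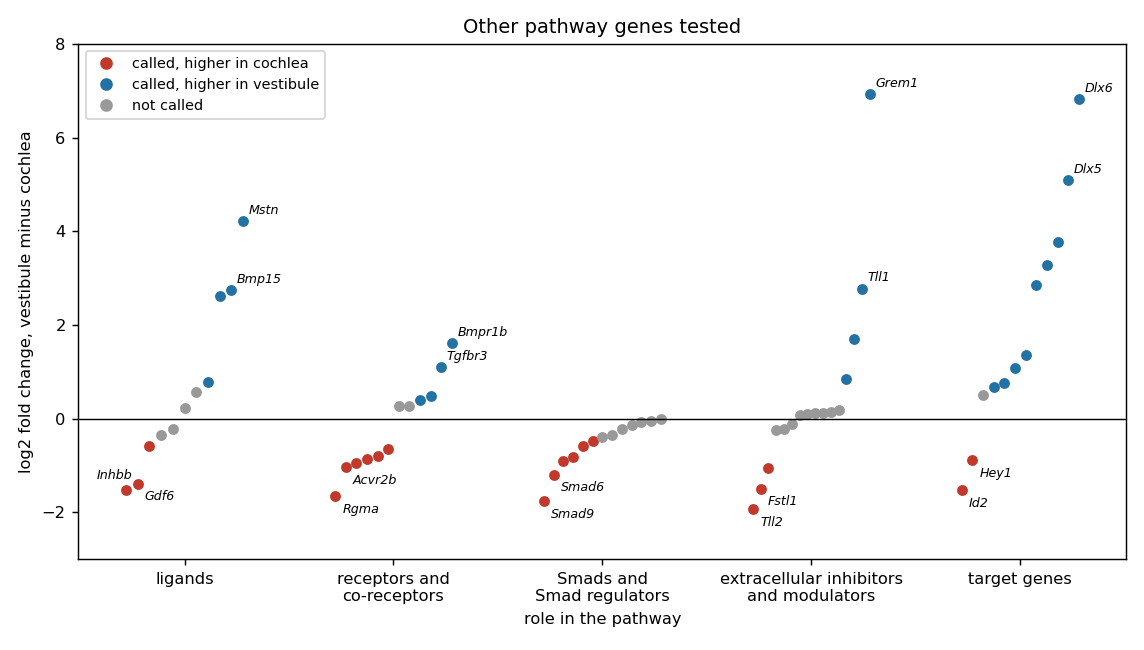
Log2 fold change (vestibule minus cochlea) of the 64 other pathway genes tested, by role, with genes called higher in the cochlea in red, in the vestibule in blue and those not called in grey; the 2 strongest in each direction are labelled. The 6 Smads and Smad regulators that were called lie below 0, and the targets lie mostly above 0. The topmost points, Grem1 at 6.93 and Dlx6 at 6.82, stood at 7.92 and 8.92 without cochlea replicate 3.

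The gene most like each called member over the 6 libraries was found by Pearson's r of log2 CPM. It was Btc for Bmp2 (r = 0.999), Ier5 for Bmp4 (0.998), Fam196b for Inhba (0.999), Lrrtm1 for Fst (0.9996), Eml2 for Chrd (0.998), Alg11 for Nog (0.998), Litaf for Id1 (0.998) and Gdpd1 for Id3 (0.996). The 6 points of each pair share the difference between the tissues. Between 234 and 1199 genes had an r above 0.95 with a given member, 1199 of them with Bmp2.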

How the data were processed

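Per the labels and the methods of the study, reads of a stranded mRNA library were aligned by the authors with TopHat2 2.1.0 to GRCm38 and counted per Ensembl gene with HTSeq 0.5.4p5, and SAMtools 0.1.18 and edgeR 3.4.2 are also named; the strand setting is not given in the sources used here. The authors deposited whole counts for each library, without normalization. The last 5 lines of a count file, 18.5% to 20.6% of the listed counts, name no gene and were left out. The authors also deposited log2 RPKM for 14722 genes, used here only for levels per gene length.

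A gene was tested where 3 or more libraries reached 1 CPM. The test was the quasi-likelihood test of edgeR 4.0.16 under R 4.3.3 (TMM, Benjamini-Hochberg, FDR 0.05), which fits raw counts and was first tested on simulated data. A standard error is the fold change divided by the root of the F statistic, and a 95% interval uses the fit's degrees of freedom. DESeq2 1.42.0, limma-voom 3.58.1, other scalings and filters, a replicate block and leaving out each library were tried. The r used log2 CPM with a prior count of 0.5. Figures used Python 3.11.15 and matplotlib 3.10.9.

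The 10 genes, the pathway lists and the marker lists were chosen with earlier results of these data known. Outside the 10, the rule named the 2 pathway genes with the largest called change in each direction and role, at 1 CPM or more on average. The ratios, the gene lengths of GENCODE vM21 and the counts over pathway genes at 1 CPM in all 6 libraries were chosen after values were seen. With 3 libraries in a tissue no test of outlying libraries was made, and an exact test of 3 against 3 cannot go below p = 0.1.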

Additional observations from a re-analysis of the deposited data

How the results depend on the processing

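The 8 calls among the 10 genes kept their direction in all 13 alternatives, and none of the 129 refitted member fold changes turned sign. With each library left out in turn, 6 to 9 members, 27 to 40 pathway genes and 2267 to 4557 of all genes were called, the fewest over all genes and over the pathway without vestibule replicate 2. Bmp2, Bmp4, Inhba, Fst, Id1 and Id3 kept their calls in every alternative. Nog was too low for the filter of at least 5 CPM in 3 libraries and was not tested there. With library sizes alone in place of TMM, the median over all genes of the log2 fold change moved from 0.0048 to 0.13, and calls over all genes went from 1711 higher in the cochlea and 2325 in the vestibule to 1251 and 2754, while 8 members were still called. The replicate numbers showed no pairing. The deviations of same-numbered libraries from their tissue means correlated at -0.48 to -0.18, and no library correlated best with its own number. Libraries of different numbers correlated at -0.27 to 0.41, and a pairing under other numbers was not tested. With the replicate block, 2618 of all genes and 6 members were called, and Chrd (log2 fold change 0.91, edgeR adjusted p = 0.065), Nog (-1.04, edgeR adjusted p = 0.063), Acvr2b (edgeR adjusted p = 0.064) and Id4 (edgeR adjusted p = 0.059) lost their calls; the cause was not tested. Of the 20 mean levels in CPM, 1 moved by more than its SD with TMM-scaled library sizes, and of the 20 mean levels in log2 RPKM, 7 moved with the exon lengths of GENCODE vM21, an alternative chosen after seeing the data. Without cochlea replicate 3, log2 fold changes moved from 2.75 to 3.39 for Bmp15, from 6.93 to 7.92 for Grem1 and from 6.82 to 8.92 for Dlx6, and Dlx6 was 7.45 with limma-voom; these genes have few cochlear counts. Bmp15, Dlx5 and Dlx6 did not pass the filter without a vestibular library and were not tested there. Among the 10 genes, depth limits Inhba, Fst and Nog most, with under 100 counts in each vestibular library.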
